A study of Mus musculus with 8 samples.

Results

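The mRNAs of cyclin-dependent kinase 1, of its cyclin partners and of the enzymes that add or remove its inhibitory phosphates were examined in oocytes that lack both catalytic subunits CNOT7 and CNOT8 of the CCR4-NOT deadenylase. The group was defined by gene symbol and comprised Cdk1, the cyclin genes Ccna2, Ccnb1, Ccnb2 and Ccnb3, the inhibitory kinase genes Wee1 and Wee2, and the activating phosphatase genes Cdc25a, Cdc25b and Cdc25c. These are 10 of the 46078 genes in the count table. All 10 passed the filter on low counts, as did 19241 genes in all. No measured value entered the rule that chose them, but earlier results of these data were known when they were chosen.

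RNA-seq had been performed on fully grown oocytes at the germinal vesicle (GV) stage, in which meiosis is still arrested in prophase of the first division. There were 4 libraries from CNOT7&8 KO oocytes and 4 from oocytes of Zp3-Cre controls, with a pool of 100 oocytes for every library. Both groups carried the Zp3-Cre transgene, whose promoter is active in growing oocytes, and only the KO group also carried homozygous floxed Cnot7 and Cnot8 alleles, so that deletion occurs during oocyte growth and the surrounding somatic cells keep both genes. Donors were 4-week-old females on a C57BL/6J background that had been injected with PMSG, a gonadotropin that stimulates follicle growth. The cumulus cells were removed and the oocytes were held in medium with dibutyryl-cAMP, which prevents meiosis from resuming, so the values describe arrested oocytes and not maturing ones. The sources used here do not say how many females contributed to each library, so the p-values measure the spread between these libraries only. Since each library holds RNA of many oocytes and is scaled to its own total, a change in every oocyte cannot be told apart from a change in the share of oocytes that hold the mRNA, and the amount of RNA per oocyte was not measured.

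Entry into meiotic divisions is driven by CDK1 bound to a B-type cyclin. In the arrested oocyte the complex is kept inactive by WEE2 and MYT1, which phosphorylate CDK1, and it is switched on when CDC25 phosphatases remove those phosphates. Oocytes at this stage are nearly silent in transcription and rely on stored mRNAs, many of which gain or lose poly(A) tails before they are translated. The sequencing counted reads and did not measure tail length or protein.

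The cytoplasmic polyadenylation element (CPE), a short U-rich motif of the 3′UTR bound by CPEB proteins, is a well known sequence through which such stored mRNAs are controlled. The motif UUUUAU, searched as TTTTAT on the transcript strand of the longest annotated 3′UTR of at least 50 bases, was present in 8 of the 10 mRNAs. It was present in 56.2% of the 15167 tested genes with such a 3′UTR. The mRNAs without it were Wee1 and Cdc25b. The median 3′UTR length was 1110 bases for the 10 genes and 1273 bases for all. Within 100 bases before the last polyadenylation signal (AATAAA or ATTAAA) of that 3′UTR, only Ccnb3 held the motif, 1 of 10 genes against 12.9% of all. CPEs are known to work best close to the signal in use. Only UUUUAU was searched and no other form of the element, and distances to earlier signals were not measured. Which 3′UTR ends the oocytes use was not tested, so the other genes may hold a well placed element that this search misses. The windows below belong to CDK1, its B cyclins and WEE2, and the capitals mark the motif. They were read from the GENCODE vM21 transcripts of build GRCm38 and are given in the 5′ to 3′ direction of the mRNA, with T for U.
Ccnb1 site 1, chr13:100779247-100779276, minus strand: ccaagtatctttTTTTATgtaattatttat
Ccnb1 site 2, chr13:100779084-100779113, minus strand: ccaaggagatatTTTTATatgggttcattt
Ccnb1 site 3, chr13:100779069-100779098, minus strand: tatatgggttcaTTTTATcaacagtattcc
Ccnb2, chr9:70407860-70407889, minus strand: atcctgtatgtaTTTTATtctagtttacat
Ccnb3, chrX:6979702-6979731, minus strand: tcttgaaattacTTTTATgaaagaagagaa
Cdk1 site 1, chr10:69336963-69336992, minus strand: atacttttaactTTTTATaagattgcttga
Cdk1 site 2, chr10:69336263-69336292, minus strand: agtgacaaagaaTTTTATgggtggggtggg
Wee2, chr6:40466784-40466813, plus strand: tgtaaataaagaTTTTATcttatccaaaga
The motif of Ccnb3 ended 42 bases before its last signal. That of Ccnb2 lay 161 bases before it, those of Ccnb1 407 to 585 bases before it, and those of Cdk1 1101 and 1801 bases before it. In Wee2 the motif followed shortly after the signal, 12 bases from the annotated end. Ccna2 held 5 copies and Cdc25a 3. A match is a description of the letters only, and whether CPEB or CCR4-NOT binds there was not tested.

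Libraries held 8639444 to 44092144 counts. Cnot8 stood at 21.0% of its control level in KO libraries and Cnot7 at 77.1%, and for both every KO library lay below every control library. The counts of both genes include any exons that remain after deletion. Oocyte markers were present throughout, with a summed level of 16105 to 18950 TMM-normalised CPM (read counts relative to the scaled library total) in control libraries and 13688 to 15926 in KO libraries over 8 genes. Of 10 granulosa and cumulus markers, the summed level was 114 to 154 CPM over control libraries and 179 to 218 CPM in KO libraries, with Foxl2 at or below 0.109 CPM in all 8. The most abundant was Nr5a2, with 48.3 to 69.3 CPM in control and 114 to 132 CPM in KO libraries, and the next was Cyp19a1, which was lower in every KO library (23.5 to 38.1 CPM) than in every control library (50.4 to 67.7 CPM). Fshr (0.952 to 1.58 CPM in control and 2.90 to 5.77 CPM in KO libraries) and Hsd3b1 (1.09 to 3.63 and 3.71 to 6.62 CPM) were higher in every KO library. Inha, an inhibin subunit of granulosa cells, ranged from 4.44 to 9.9996 CPM over the control libraries and had 38.4, 34.1, 26.5 and 4.77 CPM in KO replicates 1 to 4. The groups also overlapped for Foxl2, Amhr2, Inhba, Ptx3 and Has2. Markers of theca, stroma, endothelium and blood summed to 87.3 to 109 CPM in control and 74.9 to 88.9 CPM in KO libraries, nearly all of it Pecam1, and Hbb-bs was at 0 in all 8. Control replicate 1 and KO replicate 4 stood apart from the others of their groups, and their deviations from the group means were alike, with r = 0.81 over 8726 genes of at least 10 CPM. Results are therefore also given without both. Control replicate 1 and KO replicate 4 also had the most counts of their groups, 44092144 and 26784110. The part of sequencing depth in their deviations was not tested.

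Relative to control, KO libraries had a lower level of Ccnb3 and a higher level of Wee1 mRNA, each by over 2-fold with TMM. Smaller differences were those of Cdc25b, which was higher, and of Cdk1, Cdc25a and Wee2, which were lower. The decreases of Cdk1, Cdc25a and Wee2 did not pass the false discovery rate with library sizes left unscaled or with TMM computed on genes of at least 10 CPM only. By edgeR's quasi-likelihood test at a false discovery rate of 0.05 with a fold change of at least 2, 1 of the 10 genes was higher in KO oocytes, where 23.8% of all tested genes were, and 1 was lower, where 6.56% were. At the false discovery rate alone, 2 genes were higher (31.2% of all tested genes) and 4 were lower (24.1%). Among genes of at least 10 CPM, the range in which all 10 genes lie, those shares were 9.65% higher and 7.68% lower with the fold criterion and 20.9% higher and 41.9% lower without it. Every KO library was above every control library for 2 of the 10 genes (27.0% of all tested) and below for 4 (21.4%). The median log2 fold change of the 10 genes was -0.05, that of all tested genes 0.12, and that of tested genes of at least 10 CPM -0.26. Counts over 10 genes do not set the group apart from these shares, and the single genes are described in turn.

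**Figure D1:**
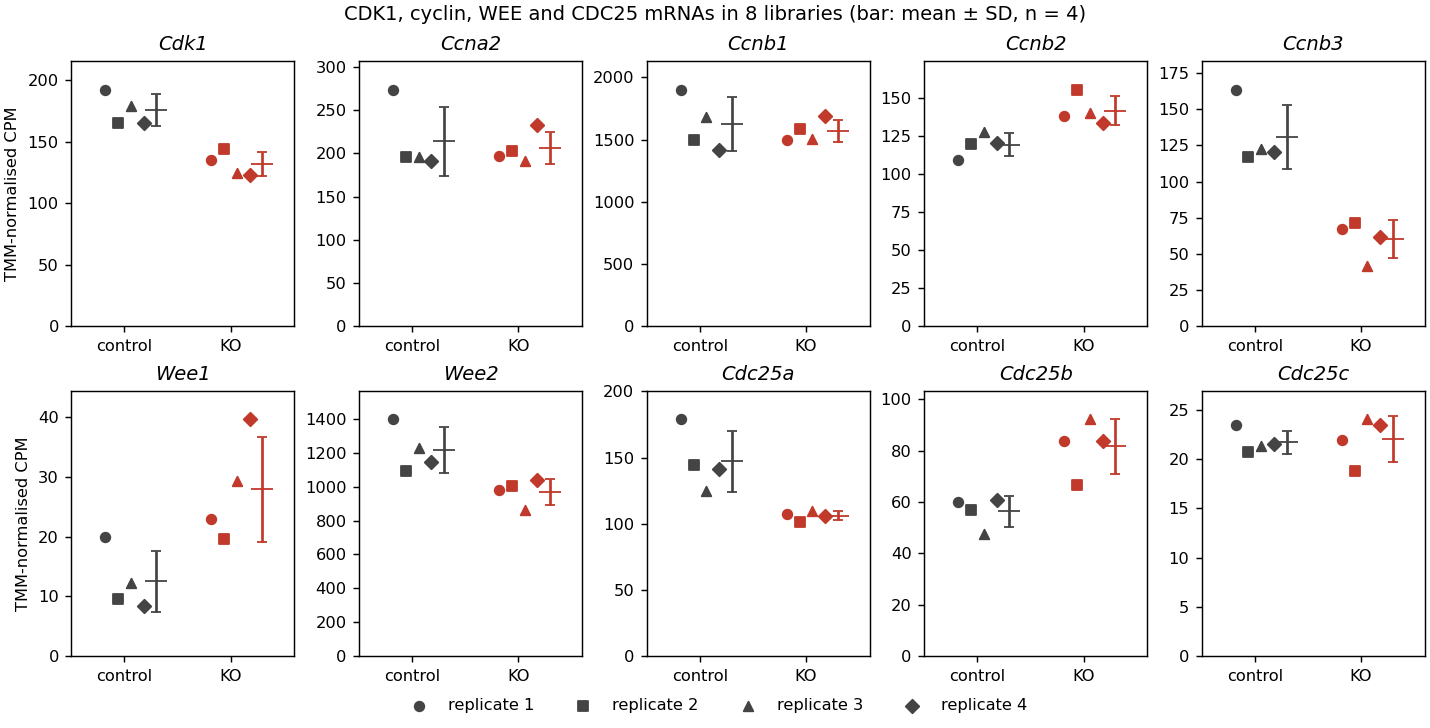
TMM-normalised CPM (vertical axis, starting at 0) of the 10 mRNAs in 4 Zp3-Cre control (dark) and 4 CNOT7&8 KO (red) libraries, with a symbol for each replicate and a bar for the mean ± SD. Cdk1, Ccnb3, Wee2 and Cdc25a lay lower in every KO library, and Ccnb2 and Cdc25b higher in every KO library.

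Cdk1 (ENSMUSG00000019942, GRCm38 chromosome 10 from 69335146 to 69352938, minus strand) encodes the kinase itself. It had 192, 165, 179 and 165 CPM in control replicates 1 to 4 and 135, 144, 125 and 123 CPM in KO replicates 1 to 4. The highest KO library was below the lowest control library. The control mean was 175 ± 12.9 CPM (SD, n = 4) and the KO mean 132 ± 9.86 CPM (SD, n = 4), a log2 fold change of -0.41 (SE 0.10, 95% interval -0.64 to -0.19, adjusted p = 0.0048 by edgeR's quasi-likelihood test). Without control replicate 1 and KO replicate 4 it was -0.33. The size of the decrease depended on the scaling of library sizes, since it was -0.13 with library sizes left unscaled (adjusted p = 0.242) and -0.16 with TMM computed on genes of at least 10 CPM only (adjusted p = 0.126). These scalings raise the log2 fold change of the median gene by 0.29 and 0.25.

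Of the B-type cyclins, Ccnb3 (ENSMUSG00000051592, chromosome X from 6979652 to 7041619, minus strand) had the largest decrease of the 10 genes. Cyclin B3 is needed for the step from metaphase to anaphase of the first meiotic division. The mRNA had 164, 117, 123 and 120 CPM in control replicates 1 to 4 and 67.1, 71.4, 41.6 and 61.7 CPM in KO replicates 1 to 4. No KO library came near the lowest control library, and control replicate 1 was well above the other 3. The means were 131 ± 21.9 CPM (SD, n = 4) and 60.4 ± 13.2 CPM (SD, n = 4), so that the KO mean was 46.1% of the control mean on this scale (log2 fold change -1.12, SE 0.17, 95% interval -1.49 to -0.74, adjusted p = 0.000178 by edgeR's quasi-likelihood test). In a ranking of all tested genes by log2 fold change Ccnb3 stood at the 5.91 percentile. The decrease passed a false discovery rate of 0.05 under each of the 19 alternatives, with log2 fold changes of -1.18 to -0.83, and was -1.003 without control replicate 1 and KO replicate 4. It was under 2-fold without control replicate 1 (-0.99), without KO replicate 3 (-0.94), with unscaled library sizes (-0.83) and with TMM on genes of at least 10 CPM (-0.86).

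Ccnb1 (ENSMUSG00000041431, chromosome 13 from 100778650 to 100786570, minus strand), which encodes a B-type cyclin partner of CDK1, did not differ beyond the spread of the replicates. It ranged from 1420 to 1903 CPM in control and from 1494 to 1689 CPM in KO libraries, and all KO values fell within the control range. The log2 fold change was -0.05, with a 95% interval from -0.29 to 0.19, and it became 0.24 with unscaled library sizes and 0.21 with TMM on genes of at least 10 CPM, the latter past the false discovery rate (adjusted p = 0.0411 by edgeR's quasi-likelihood test). The annotation holds 4 near-identical copies of the mRNA, and those in the count table, Ccnb1-ps (99.2% identity) and Gm12856 (98.1%), had 0.24% and 0.156% of the counts of Ccnb1. With their counts added to Ccnb1 the log2 fold change stayed at -0.05. Gm8416 and Gm7483 were not in the count table. How reads that match several copies were counted is not known, so a loss of such reads from Ccnb1 was not tested.

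Ccnb2 (ENSMUSG00000032218, chromosome 9 from 70407692 to 70421547, minus strand) encodes the B cyclin that is known to stand in for cyclin B1 in mouse oocytes. It had 109, 120, 128 and 121 CPM in control replicates 1 to 4 and 138, 156, 140 and 134 CPM in KO replicates 1 to 4. Every KO library was above every control library, by a narrow margin between 128 and 134 CPM. The means of 120 ± 7.60 CPM (SD, n = 4) and 142 ± 9.59 CPM (SD, n = 4) gave a log2 fold change of 0.25 (SE 0.10, 95% interval 0.03 to 0.47), which missed the false discovery rate in the test over all genes (adjusted p = 0.0525 by edgeR's quasi-likelihood test). Of 19 alternatives 8 put it past the threshold, among them DESeq2 (0.26, adjusted p = 0.0385) and the fit without control replicate 1 and KO replicate 4 (0.24, adjusted p = 0.0282), and over all 19 the adjusted p ran from 0.00134 to 0.127. The size of the increase depended on the scaling, at 0.53 with unscaled library sizes and 0.49 with TMM on genes of at least 10 CPM (adjusted p = 0.00134 and 0.00268 by edgeR's quasi-likelihood test).

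Ccna2 (ENSMUSG00000027715, chromosome 3 from 36564865 to 36572150, minus strand), the cyclin A of S phase and mitosis that also acts in oocyte divisions, showed no detectable difference. It had 274, 196, 195 and 191 CPM in control replicates 1 to 4 and 197, 203, 191 and 232 CPM in KO replicates 1 to 4. Control replicate 1 was highest by far, and the other 3 control libraries lay inside the KO range. The log2 fold change was -0.06 (95% interval -0.35 to 0.23), and it turned positive (0.08) without control replicate 1. Its exons share 510 bases with Exosc9 on the opposite strand, 12.5% of its exonic length, and the strand setting of the counting is not given in the sources used here.

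The inhibitory kinases moved in opposite directions. Wee2 (ENSMUSG00000037159, chromosome 6 from 40439088 to 40466813, plus strand) encodes the WEE kinase of oocytes, which holds CDK1 inactive during the prophase arrest. It had 1398, 1091, 1228 and 1146 CPM in control replicates 1 to 4 and 978, 1004, 861 and 1037 CPM in KO replicates 1 to 4. Every KO library was below every control library, with 1037 against 1091 CPM at the closest. The means were 1216 ± 134 CPM (SD, n = 4) and 970 ± 76.7 CPM (SD, n = 4), a log2 fold change of -0.33 (SE 0.11, 95% interval -0.56 to -0.09, adjusted p = 0.0234 by edgeR's quasi-likelihood test). Of the 6 genes past the threshold this call was lost most often, under 6 of 19 alternatives, with -0.04 for unscaled library sizes and -0.07 for TMM on genes of at least 10 CPM.

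Wee1 (ENSMUSG00000031016, chromosome 7 from 110122046 to 110143286, plus strand), the WEE kinase of somatic cells and mitotic cycles, had the largest increase. It had 19.9, 9.57, 12.2 and 8.37 CPM in control replicates 1 to 4 and 23.0, 19.7, 29.4 and 39.7 CPM in KO replicates 1 to 4. KO values were higher, but the groups overlapped, since control replicate 1 with 19.9 CPM was just above KO replicate 2. The means were 12.5 ± 5.17 CPM (SD, n = 4) and 27.9 ± 8.82 CPM (SD, n = 4), a log2 fold change of 1.15 (SE 0.28, 95% interval 0.54 to 1.76, adjusted p = 0.0042 by edgeR's quasi-likelihood test). An exact permutation test on the CPM values of the 8 libraries gave a two-sided p = 0.0571, where 0.0286 is the smallest that 4 libraries against 4 allow. The increase passed the false discovery rate under each of the 19 alternatives, with log2 fold changes of 0.96 to 1.48, the lowest, under 2-fold, without KO replicate 4, and it was 1.26 without control replicate 1 and KO replicate 4. Beside it, the summed granulosa markers of the KO libraries, most of the sum being Nr5a2, all lay above those of the controls. Nr5a2, Fshr and Hsd3b1 were higher and Cyp19a1 was lower in all 4. KO replicate 4, the highest for Wee1, had the most Nr5a2 and the least Inha of the KO libraries. The part of somatic cells in the Wee1 value was not tested.

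The 3 phosphatases also diverged. Cdc25a (ENSMUSG00000032477, chromosome 9 from 109875579 to 109893895, plus strand), which acts at the start of S phase and of division, had 179, 144, 124 and 141 CPM in control replicates 1 to 4 and 107, 101, 109 and 106 CPM in KO replicates 1 to 4. All KO libraries lay close together and below the lowest control library. The means were 147 ± 22.9 CPM (SD, n = 4) and 106 ± 3.42 CPM (SD, n = 4), a log2 fold change of -0.47 (SE 0.12, 95% interval -0.73 to -0.21, adjusted p = 0.00523 by edgeR's quasi-likelihood test). It was -0.36 without control replicate 1 and KO replicate 4, and -0.18 with unscaled library sizes and -0.21 with TMM on genes of at least 10 CPM, both short of the false discovery rate (adjusted p = 0.14 and 0.0629).

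Cdc25b (ENSMUSG00000027330, chromosome 2 from 131186949 to 131198497, plus strand) encodes the phosphatase that mouse oocytes need to resume meiosis. It had 60.0, 57.0, 47.4 and 60.8 CPM in control replicates 1 to 4 and 83.9, 66.7, 92.2 and 83.7 CPM in KO replicates 1 to 4. Every KO library was above every control library. The means were 56.3 ± 6.15 CPM (SD, n = 4) and 81.7 ± 10.7 CPM (SD, n = 4), a log2 fold change of 0.54 (SE 0.13, 95% interval 0.25 to 0.82, adjusted p = 0.00423 by edgeR's quasi-likelihood test). The increase passed the false discovery rate under each of the 19 alternatives, at 0.46 to 0.82. Its exons share 92 bases, 2.5% of their length, with Spef1 on the opposite strand.

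Cdc25c (ENSMUSG00000044201, chromosome 18, minus strand), the phosphatase most studied at entry into mitosis, ranged from 20.7 to 23.4 CPM over control libraries and from 18.8 to 24.05 CPM over KO libraries. The control range fell inside the KO range. The log2 fold change was 0.02 with a 95% interval from -0.26 to 0.31 (adjusted p = 0.894 by edgeR's quasi-likelihood test). Its exons share 623 bases, 12.7% of their length, with Gm3550 on the opposite strand.

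**Figure D2:**
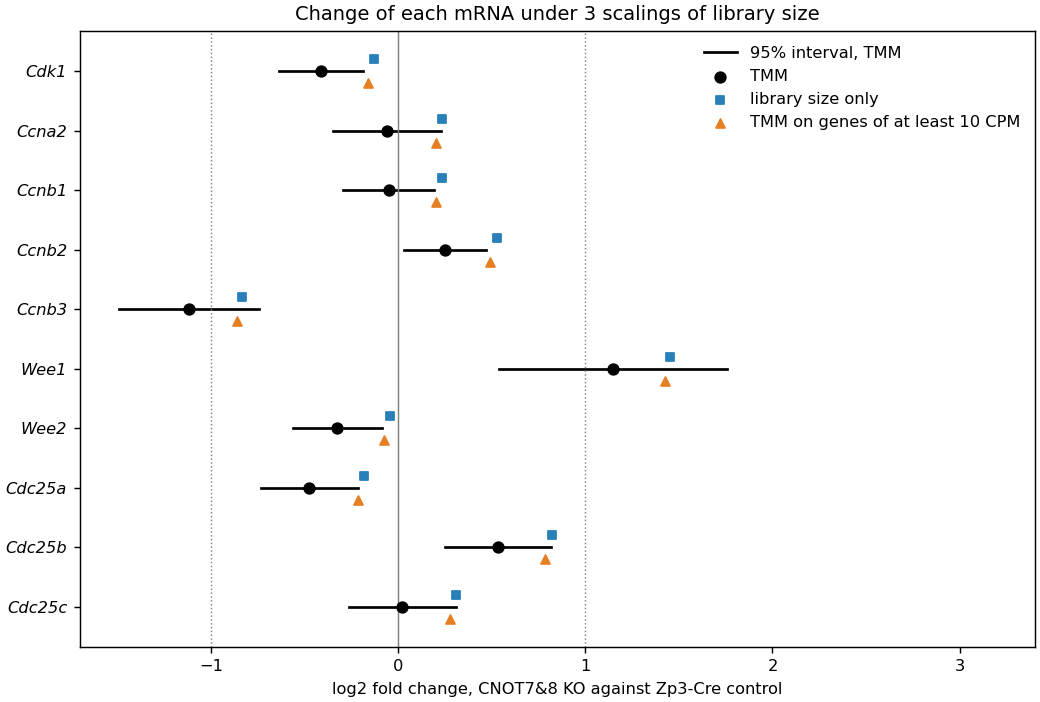
Log2 fold change of each mRNA in CNOT7&8 KO against Zp3-Cre control oocytes (horizontal axis, dotted lines at 2-fold), with the TMM value and its 95% interval in black, the value with unscaled library sizes as a blue square and that with TMM on genes of at least 10 CPM as an orange triangle. Ccnb3, Wee1 and Cdc25b kept their direction and passed the false discovery rate under all 3 scalings, though Ccnb3 was past 2-fold with TMM only, while Cdk1, Wee2 and Cdc25a moved close to 0.

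Ratios of 2 mRNAs within a library do not depend on how library sizes are scaled, and they were compared to separate the relative composition of the pathway from that choice. A set of 8 ratios was compared by two-sided exact permutation of the group labels (70 arrangements), for which 0.0286 is the smallest possible p. Its adjusted value over the 8 was 0.0381, which depends on how many of these ratios reached that smallest p. The read ratio of Wee2 to Wee1 was 70.3, 114, 100 and 137 in control replicates 1 to 4 and 42.5, 51.1, 29.3 and 26.1 in KO replicates 1 to 4. Each KO library was below each control library, and the ratio in KO oocytes was 0.351 of that in control oocytes (log2 difference -1.51, SE 0.30, exact permutation p = 0.0286, adjusted p = 0.0381).

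The read ratio of Cdc25a to Cdc25b was 2.98, 2.53, 2.63 and 2.32 in control replicates 1 to 4 and 1.28, 1.52, 1.19 and 1.27 in KO replicates 1 to 4. The groups were well apart, and the KO ratio was 0.502 of the control ratio (log2 difference -0.99, SE 0.11, exact permutation p = 0.0286, adjusted p = 0.0381). The ratio of Cdc25c to Cdc25b was 0.353 to 0.449 in control and 0.261 to 0.282 in KO libraries, 0.700 of the control ratio (log2 difference -0.51, exact permutation p = 0.0286, adjusted p = 0.0381). That of Wee2, the inhibitor, to Cdc25b, the activator, was 18.9 to 25.9 in control and 9.33 to 15.04 in KO libraries, 0.552 of the control ratio (log2 difference -0.86, exact permutation p = 0.0286, adjusted p = 0.0381). In the KO oocytes Cdc25b thus took up a larger part relative to Cdc25a, Cdc25c and Wee2 mRNA in all 4 libraries.

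Relative to Ccnb1, Cdk1 and Ccnb3 mRNA were lower in KO oocytes. The ratio of Cdk1 to Ccnb1 was 0.101 to 0.116 in control and 0.0727 to 0.0908 in KO libraries, 0.774 of the control ratio (log2 difference -0.37, SE 0.09, exact permutation p = 0.0286, adjusted p = 0.0381). The ratio of Ccnb3 to Ccnb1 was 0.0731 to 0.0860 in control and 0.0275 to 0.0450 in KO libraries, 0.470 of the control ratio (log2 difference -1.09, SE 0.18, exact permutation p = 0.0286, adjusted p = 0.0381). The difference for Ccnb2 to Ccnb1 (log2 difference 0.29, exact permutation p = 0.0857, adjusted p = 0.098) did not exceed the spread between libraries, and that for Ccna2 to Ccnb1 was -0.0014 (SE 0.07, exact permutation p = 1). In 6 of the 8 ratios the groups did not overlap. Of all single tested genes, 27.0% lay above and 21.4% below every control library in every KO library. The 8 ratios share genes, and how often ratios of other gene pairs separate the groups was not tested. A ratio does not say which of its mRNAs moved. With unscaled library sizes and with TMM on genes of at least 10 CPM, the log2 fold changes were -0.13 and -0.16 for Cdk1 and 0.24 and 0.21 for Ccnb1.

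**Figure D3:**
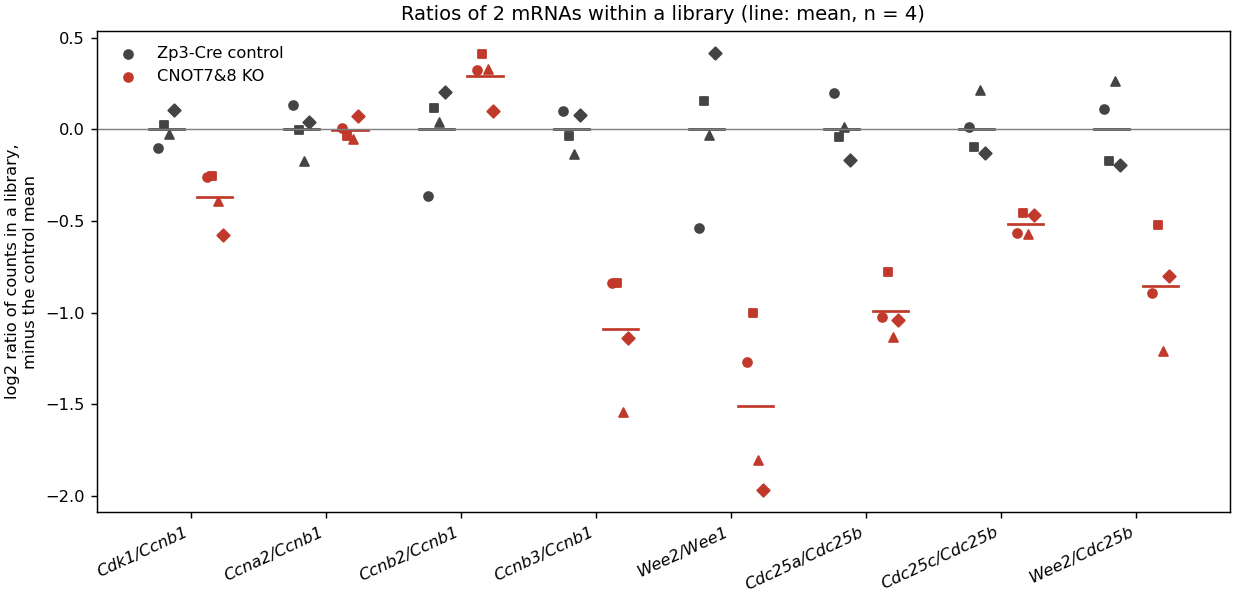
Log2 ratio of the counts of 2 mRNAs in each library minus the mean of the control libraries (vertical axis), for 4 control (dark) and 4 KO (red) libraries with symbols by replicate and a line at the mean. All KO points lie below all control points except for Ccna2/Ccnb1 and Ccnb2/Ccnb1, where the groups overlap.

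Levels of different genes were compared as CPM per kilobase of the longest annotated transcript. Ccnb1 was highest in control oocytes with 653 CPM per kilobase, followed by Wee2 with 422, and their ranges over the 4 libraries did not overlap (571 to 765 against 378 to 485). Ccnb2 (78.1) and Ccna2 (72.2) came next, and their ranges overlapped. They were followed by Cdk1 (40.1) and Cdc25a (39.2), which did not differ beyond their spread, then Ccnb3 (28.8, overlapping Cdc25a), Cdc25b (18.2), Cdc25c (8.24) and Wee1 (3.66). In KO oocytes the order of the means changed at a single place. Ccnb3 (13.3, 9.13 to 15.7) fell behind Cdc25b (26.4, 21.6 to 29.9), and these ranges were reversed in order from those of control oocytes without overlap. Ccnb2 (92.8, 87.4 to 102) no longer overlapped Ccna2 (69.4, 64.3 to 78.4). Wee1 (8.17) and Cdc25c (8.38) could no longer be told apart, as the 5.75 to 11.6 of Wee1 spanned the 7.15 to 9.13 of Cdc25c.

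The order among genes rests on the transcript length used. With its shortest complete transcript of 1253 bases in place of the longest of 4375 bases, Cdk1 rose to 140 CPM per kilobase in control and 105 in KO oocytes, and then came next after Wee2. With the union of all exons, Ccnb1 (385) and Wee2 (387) in control oocytes could not be told apart. Which transcripts the oocytes use was not tested.

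**Figure D4:**
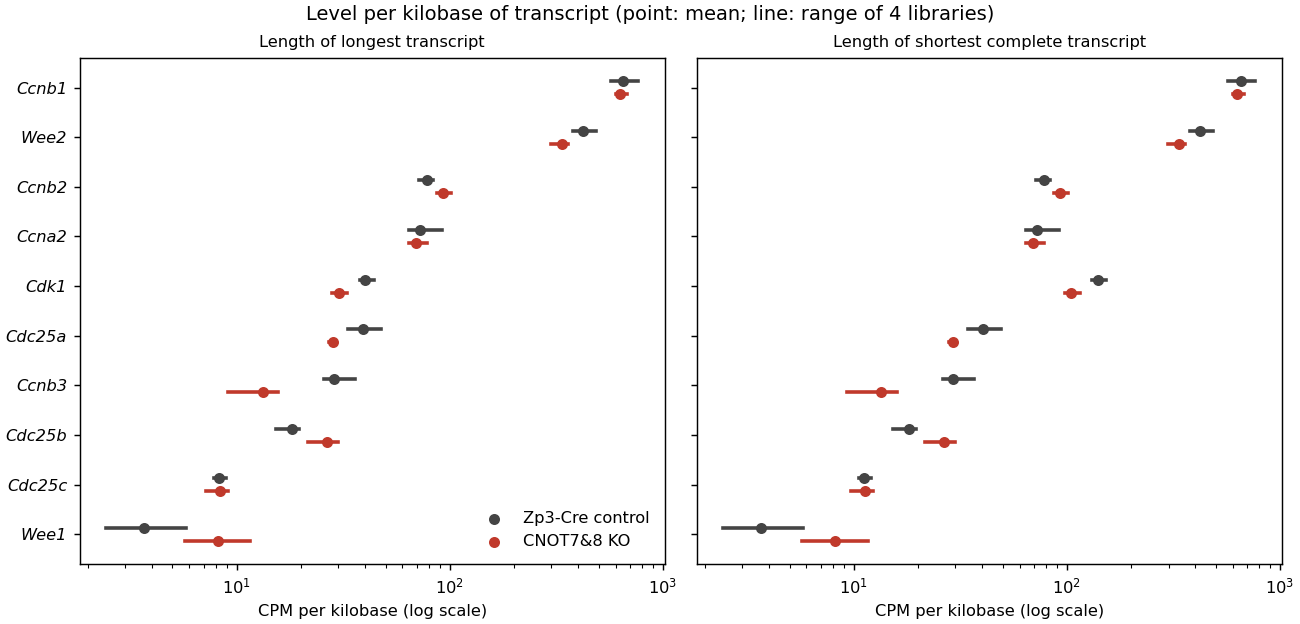
CPM per kilobase on a log scale (horizontal axis) of the 10 mRNAs in control (dark) and KO (red) oocytes, with a point for the mean and a line for the range of 4 libraries, using the longest transcript on the left and the shortest complete transcript on the right. Ccnb1 and Wee2 lead in both panels, Ccnb3 and Cdc25b exchange places between control and KO, and Cdk1 is the gene that the choice of transcript moves most.

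The shares of each family were taken within a library on the same per-kilobase scale of the longest transcript. Among CDC25 mRNAs, Cdc25a made up 57.4% to 62.7% in control and 42.8% to 48.4% in KO libraries, and Cdc25b 25.6% to 30.1% in control and 38.7% to 43.8% in KO libraries. Cdc25c kept 11.7% to 14.3% in control and 12.8% to 13.9% in KO libraries. The Cdc25a share was lower in each KO library than in each control library, and the Cdc25b share higher. Wee1 made up 0.612% to 1.19% of WEE mRNA in control and 1.63% to 3.13% in KO libraries, so that Wee2 made up at least 96.9% of the family in all 8. Of the B cyclins, Ccnb1 held 84.4% to 87.7% in control and 84.4% to 87.1% in KO libraries, while Ccnb3 held 3.43% to 4.12% in control and 1.29% to 2.09% in KO libraries.

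The 10 genes varied among themselves within a group. After the group means of log2 CPM were subtracted, the deviations of Ccna2 and Ccnb1 over the 8 libraries had r = 0.88, those of Wee2 with Ccnb1 and with Ccnb3 r = 0.85 each, and those of Ccnb2 with Cdc25c r = -0.82. These values describe 8 libraries that share their scaling, and control replicate 1, the highest control library for Cdk1, Ccna2, Ccnb1, Ccnb3, Wee1, Wee2, Cdc25a and Cdc25c and the lowest for Ccnb2, weighs on them. The genes whose deviations were most like those of Cdk1 among 8726 genes of at least 10 CPM were Malat1 (r = 0.98), Ctsl (r = 0.97) and Psma5 (r = 0.97). Between the groups, Malat1 rose from 45.9 to 138 CPM and Ctsl from 9.20 to 44.9 CPM. Psma5 fell from 108 to 67.0 CPM, in the same direction as Cdk1. Likeness within groups thus went with a like direction between them for Psma5, but not for Malat1 and Ctsl. These genes were picked as the highest correlations of 8726 genes, and how high such values would be by chance was not tested.

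Other genes of CDK control were described from lists of 35 genes, of which 34 were tested and Ccna1 had no counts. At a false discovery rate of 0.05 with a 2-fold change, 5 were higher in KO oocytes and 0 lower, and at the false discovery rate alone 8 were higher and 12 lower (edgeR's quasi-likelihood test). For all tested genes the shares were 23.8% higher and 6.56% lower with the fold criterion and 31.2% higher and 24.1% lower without it. Among genes of at least 10 CPM, where most but not all of the 34 lie, they were 9.65% higher and 7.68% lower with the fold criterion. Without it they were 20.9% higher and 41.9% lower. The counts of the single lists given next are too small to be set apart from these shares, and those of all lists together were not tested against them. The median log2 fold change of the 34 genes was -0.21. With unscaled library sizes, 10 of the 34 were higher and 9 lower at the false discovery rate alone, and the median was 0.07.

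The 5 genes with an increase of over 2-fold were cyclins and regulators of the G1 phase and S phase and an activator of meiotic prophase. Ccne2, a cyclin E that drives CDK2, had 143, 106, 124 and 100 CPM in control replicates 1 to 4 and 264, 277, 324 and 353 CPM in KO replicates 1 to 4, with no overlap (log2 fold change 1.37, SE 0.14). Ccne1, its paralog, rose from 6.27 ± 1.20 CPM to 23.7 ± 4.47 CPM (SD, n = 4 each, log2 fold change 1.92). Ccnd1, a cyclin D that drives CDK4 and CDK6, rose from 1.65 ± 0.289 CPM to 13.4 ± 2.33 CPM (SD, n = 4 each, log2 fold change 3.02). Cdkn1a, which encodes the CDK inhibitor p21, was low and rose from 0.308 to 1.97 CPM (log2 fold change 2.62). Spdya, which encodes the CDK2 activator Speedy A, was detected with 7, 1, 3 and 1 counts in control and 4, 19, 23 and 39 counts in KO libraries, so that its log2 fold change of 2.96 rests on few counts. Every KO library was above every control library for all 5 genes on the CPM scale, and the 5 calls held under every scaling tested. The summed granulosa markers were also higher in every KO library. Nr5a2, Fshr and Hsd3b1 were higher and Cyp19a1 was lower in all 4, and Inha was higher in KO replicates 1 to 3. The part of granulosa cells in the increases of the 5 genes was not tested.

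Among CDK subunits, partners and other cyclins, 4 of the 8 tested genes rose and 1 fell. The increases were those of Ccne1, Ccne2, Spdya and Cdk2, the kinase partner of cyclin E (log2 fold change 0.46, with overlapping groups). The gene that fell was Ccno, a cyclin-like gene and the most abundant of this list, which fell from 373 ± 25.5 CPM to 257 ± 36.8 CPM (SD, n = 4 each, log2 fold change -0.54). Its call was lost with unscaled library sizes (-0.26) and with TMM on genes of at least 10 CPM (-0.29). Of the CDK-activating kinase, 2 of the 3 subunit genes fell and 1 rose. Cdk7, its catalytic subunit, fell from 174 ± 9.57 CPM to 108 ± 4.66 CPM (SD, n = 4 each, log2 fold change -0.68), and Mnat1, its assembly factor, from 54.6 ± 1.78 CPM to 32.4 ± 1.26 CPM (log2 fold change -0.76). Ccnh, the cyclin subunit, rose from 25.2 ± 1.91 CPM to 34.05 ± 3.25 CPM (log2 fold change 0.43). These 3 calls held under every scaling tested, and no KO library overlapped the control libraries for any of the 3.

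Of 6 kinases and cofactors upstream of CDK1 tyrosine phosphorylation, 3 fell and 0 rose. Chek1, which encodes a checkpoint kinase that restrains CDC25, fell from 685 ± 105 CPM to 415 ± 45.0 CPM (SD, n = 4 each, log2 fold change -0.72). Aurka, which encodes Aurora A, fell from 208 ± 14.7 CPM to 123 ± 5.53 CPM (log2 fold change -0.76), and Plk1, which encodes an activator of CDC25, from 100 ± 23.6 CPM to 52.7 ± 16.4 CPM (log2 fold change -0.93), where KO replicate 3 with 73.4 CPM overlapped control replicate 1 with 69.3 CPM. Pkmyt1, the gene of MYT1, was at 10.3 ± 2.87 CPM in control oocytes against 8.81 ± 3.78 CPM in KO oocytes (SD, n = 4 each), with overlapping groups.

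The 14-3-3 proteins bind phosphorylated CDC25 and keep it from CDK1. Of their 7 genes 4 fell and 0 rose with TMM, and 2 fell with unscaled library sizes. Ywhaz, the most abundant, fell from 442 ± 44.3 CPM to 256 ± 23.9 CPM (SD, n = 4 each, log2 fold change -0.79), and Ywhag from 309 ± 46.0 CPM to 215 ± 40.6 CPM (log2 fold change -0.52), with overlapping groups. The other decreases were those of Ywhaq (log2 fold change -0.70) and Ywhae (-0.33).

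Among CDK inhibitors and CDC14 phosphatases, the latter of which oppose CDK substrates, 1 of 5 rose and 2 fell. Cdc14b fell from 25.3 ± 3.75 CPM to 15.9 ± 1.67 CPM (SD, n = 4 each, log2 fold change -0.67) and Cdc14a by -0.86 on the log2 scale, whereas Cdkn1b, the gene of p27, was at 35.6 ± 6.80 CPM in control oocytes against 34.3 ± 3.80 CPM in KO oocytes. Of 5 G1 cyclins and kinases 2 rose and 0 fell. Ccnd2, the most abundant of these, had 89.3 ± 13.2 CPM and 80.4 ± 14.4 CPM (SD, n = 4 each) with overlapping groups, and Ccnd3 had 7.92 ± 0.441 CPM and 11.6 ± 3.33 CPM (log2 fold change 0.54).

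**Figure D5:**
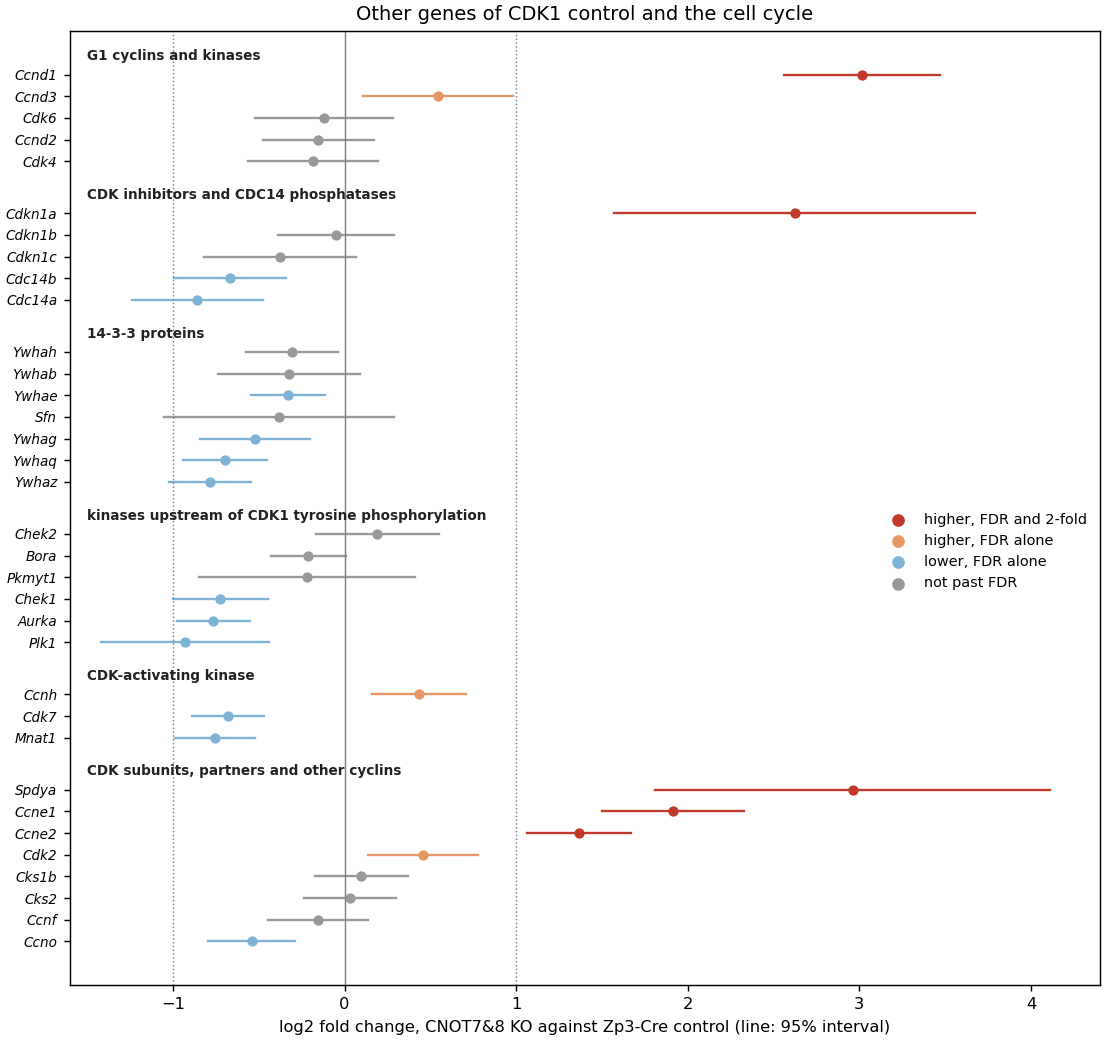
Log2 fold change (horizontal axis, dotted lines at 2-fold) with 95% interval of 34 other CDK control and cell cycle genes in CNOT7&8 KO against Zp3-Cre control oocytes, grouped by list and coloured by call. The 5 genes past 2-fold are all higher in KO oocytes, and the 12 lower genes, in blue, all have a change of under 2-fold.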

How the data were processed

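Groups and replicate numbers of the 8 libraries were taken from the labels. The authors depleted ribosomal RNA, read 150-bp pairs, mapped them to GRCm38 with STAR (2.6.1d in the submitters' processing notes) and deposited raw counts per gene, neither normalised nor filtered. The counting tool, annotation and strand setting are not given in the sources used here. The study's methods name a stranded mRNA kit and the labels a stranded total RNA kit.

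Genes that reached 0.2 CPM in at least 2 libraries were compared with edgeR 4.0.16 in R 4.3.3 (TMM, quasi-likelihood test, Benjamini-Hochberg adjustment over 19241 genes). Alternatives were edgeR's exact test, DESeq2 1.42.0, other scalings and filters, the replicate block, near-identical copies added (BLAST 2.17.0), and libraries left out. Log2 ratios within a library used a prior of 0.5 counts. Of the gene identifiers, 98.0% were in GENCODE vM21, which gave coordinates, lengths and 3′UTRs. Scripts were tested on simulated data. Figures were made with matplotlib 3.10.9. A total of 3 counts, taken as the floor, was 0.068 to 0.347 CPM by library, covering counting error only. Replicates all differed by more than counting noise (lowest chi-square per degree of freedom 7.85).

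The 10 genes and the lists were chosen with earlier results of these data known. Speedy A was listed by its table symbol Spdya. Of each list the text names genes past the false discovery rate and 2-fold and the 2 with the highest mean CPM. Additions to this rule, namely Cdk2, Ccnh, Plk1, Pkmyt1, Ywhaq, Ywhae and Cdc14a, were chosen after their values were seen.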

Additional observations from a re-analysis of the deposited data

Results flagged for a closer look

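For Ccna2, control replicate 1 had 274 CPM where the other 3 control libraries had 191 to 196 CPM, a gap to the nearest that is large for the range of the group (0.947 of the range, above Dixon's critical value for 4 samples). For Ccnb3, the same library had 164 CPM where the other 3 had 117 to 123 CPM (0.884 of the range). Without this library the log2 fold change of Ccna2 was 0.08 and that of Ccnb3 -0.99, the latter just under 2-fold and past the false discovery rate. These were 2 of 36 sets of 4 values examined, and chance flags about 1.8 of 36.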

How the results depend on the processing

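The decreases of Ccnb3 and the increases of Wee1 and Cdc25b passed the false discovery rate under all 19 alternatives. With unscaled library sizes, TMM on genes of at least 10 CPM, upper-quartile scaling or a stricter filter (1 CPM in 4 libraries), the log2 fold change of Ccna2 became 0.232, 0.203, 0.046 and 0.0151 and that of Ccnb1 0.236, 0.205, 0.0513 and 0.0209, in place of small negative values. Ccna2 also changed sign without control replicate 1, without KO replicate 3 and without both control replicate 1 and KO replicate 4 (0.0201), Ccnb1 without control replicate 1 or KO replicate 1, and Cdc25c without control replicate 2. When single libraries were left out, these 3 ran from -0.107 to 0.0841, from -0.109 to 0.0343 and from -0.000705 to 0.115. The ratio of Ccna2 to Ccnb1, whose log2 difference was -0.0014, ran from -0.0585 to 0.0433 when a library was left out and was 0.0189 without both. Cnot7 lost its call with unscaled library sizes (-0.0925) and with TMM restricted to genes of 10 CPM or more (-0.123), as did Cdk1 and Cdc25a. Under these 2 scalings 0 of the 10 genes were lower by 2-fold and 1 (Ccnb3) at the false discovery rate, and the second scaling put 4 of them higher at that rate (Ccnb1, Ccnb2, Wee1 and Cdc25b).

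When single libraries were left out, 0 to 1 of the 10 genes were higher by 2-fold (0 without KO replicate 4), 0 to 1 lower by 2-fold (0 without control replicate 1 or KO replicate 3), and 0 to 1 other pathway genes lower by 2-fold (Plk1, without control replicate 1 or KO replicate 3). The ratio of Wee2 to Cdc25b ran from -0.97 to -0.74, and without control replicate 3 it was -0.77 with an exact permutation p = 0.0571. Wee2 lost its call without control replicate 3 (-0.32, adjusted p = 0.0501). With both control replicate 1 and KO replicate 4 left out, the log2 differences were -0.34 for Cdk1/Ccnb1, -1.04 for Ccnb3/Ccnb1, -1.54 for Wee2/Wee1, -0.91 for Cdc25a/Cdc25b, -0.53 for Cdc25c/Cdc25b and -0.84 for Wee2/Cdc25b, each with an exact p of 0.1, the smallest that 3 against 3 libraries allow.

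The labels do not say whether same-numbered libraries were prepared as pairs. Their deviations were correlated at -0.38, -0.12, 0.39 and -0.55, which cannot decide it, as control replicate 1 and KO replicate 4 weigh on these values. With the replicate block the fit lost Wee2 (-0.32, adjusted p = 0.0583) and no other of the 10 genes, and the exact sign-flip test of the ratios (Cdk1/Ccnb1 -0.37, Ccnb3/Ccnb1 -1.09, Wee2/Wee1 -1.51, Cdc25a/Cdc25b -0.99, Cdc25c/Cdc25b -0.51, Wee2/Cdc25b -0.86) gave p = 0.125 for each, the smallest that 4 pairs allow. The length alternative with the shortest complete transcript was added after seeing the data, and 18 levels per kilobase moved by more than the spread of the replicates with another length.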
